A study of Homo sapiens with 18 samples.

Results

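The m6A landscape described here is that of LoVo cells, an established human colorectal cancer cell line, that carry METTL3 K513R. METTL3 carries the active site of the nuclear methyltransferase for N6-methyladenosine (m6A), and in its K513R form an arginine replaces a lysine. Members of the landscape are the 15406 regions of the deposited m6A peak table that the authors named for K513R, out of 39708 regions in all. They lay on 7788 genes, of 61267 in the deposited gene count table. The series is about methylation of the METTL3 protein, and it holds 18 LoVo libraries, of which the K513R MeRIP libraries (3 input, 3 IP) and 3 K513R RNA-seq libraries were used. For MeRIP-seq the poly(A) fraction was cut into fragments with zinc, 10% of them stayed as input, and the rest were pulled down with an antibody to m6A (IP). The labels do not say how the mutant METTL3 was introduced, whether wild-type METTL3 remained, whether the cells are 1 clone, or whether the numbered libraries came from separate cultures. All p-values therefore measure the spread between these libraries, which may be technical.

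m6A is laid down on nuclear RNA by METTL3 bound to METTL14, with WTAP, VIRMA, ZC3H13, RBM15 and other proteins guiding the pair to RNA. In most mammalian mRNAs it is found in long internal exons, around the stop codon and in the 3′ untranslated region, and it is scarce near splice junctions. YTH-domain proteins read the mark and shorten the life of many of its transcripts, and the demethylases FTO and ALKBH5 can remove it.

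Counts inside all deposited peaks summed to 9198650, 6407249 and 5905811 in the K513R IP libraries and to 4847236, 2994262 and 2625446 in the inputs. The K513R-named peaks held 4588358, 3217941 and 2961395 of the IP counts and 2352678, 1446683 and 1265870 of the input counts. Enrichment was spread least in pair 1, the IP and input libraries numbered 1. The SD over peaks of log2 IP over input was 0.66 in that pair, against 0.90 and 1.01 in pairs 2 and 3, and pair 1 was the lowest of the pairs in 1294 of the 2237 stronger peaks counted below. RNA-seq totals were 47451837 to 53795212. Epithelial markers were high in the RNA-seq libraries: KRT8 had 1863 CPM (counts scaled for library size), CDH1 168 CPM and EPCAM 147 CPM. The differentiation markers CDX2, VIL1, KRT20, LGALS4 and CEACAM5 had 0.0963 to 2.27 CPM, and markers of other cell types had 0.638 CPM (PDGFRB) to 33.5 CPM (CD68).

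Peaks had a median length of 241 bases, with a 5th to 95th percentile of 62 to 9362 bases, and 3807 of them (24.7%) spanned an intron. They overlapped an earlier K513R peak in 470 cases and exons of several genes in 1203 cases, so some peaks share reads. The deposited fold enrichment had a median of 4.58 and ran from 1.07 to 140. The authors listed these regions as m6A peaks, so enrichment as such is no result. The test used here asked which peaks were stronger or weaker than the typical peak of the table: each library was scaled to its counts in the tested peaks, so that a log2 IP over input of 0 is the typical peak and a negative value does not mean IP below input.

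Of the 15406 peaks, 10053 had enough counts to be tested. The other 5353 had a median input count of 1, against 34.7 in the tested peaks. In the tested peaks the median log2 IP over input was 0.35, with a 10th to 90th percentile of -0.50 to 1.48 and a range of -2.51 to 5.01. Stronger than typical were 2237 peaks on 1863 genes, 22.3% of those tested, and weaker were 760 peaks on 645 genes, 7.56% (edgeR quasi-likelihood test, Benjamini-Hochberg adjusted p under 0.05). Over all 24129 tested regions of the table the shares were 16.2% stronger and 15% weaker. The names tie these regions to the K513R libraries themselves, so nothing is read from the excess of stronger peaks. Fitted on the K513R-named regions alone, the typical peak shifted, the median fell to 0.08 and the calls split into 1387 stronger and 1533 weaker (47.5% of calls stronger, against 74.6% of the K513R calls when fitted with the whole table). The direction of any peak near 0 thus depends on the set of peaks that defines typical.

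The counts of calls also depended on single libraries. Without pair 2 there were 939 stronger and 80 weaker peaks, and without pair 3 there were 1348 and 285. Weaker peaks numbered 1144 without IP library 1, 361 without IP library 2, 489 without IP library 3 and 455 without input library 2. In each of the 9 fits that left out a library or a pair, 741 of the 2237 stronger peaks and 75 of the 760 weaker peaks were called again. Unless a sentence says otherwise, each peak named below as stronger or weaker was called in all the alternatives that could test it. Peaks with few input counts could pass the filter only through their IP counts, so a weak peak of low input was rarely testable. With a mean input count of at least 20 required, 6291 peaks remained, with a median of 0.16, 1473 stronger and 487 weaker.

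Peaks at the start of an RNA come first, because the antibody can read another modification there; this comparison was chosen after the data were seen. The adenosine next to the cap of an mRNA is often methylated at the same nitrogen by PCIF1, giving m6Am, and antibodies to m6A also bind m6Am. The start of the gene given by RefSeq (GRCh38.p14) lay within 30 bases of the 5′ end of 991 K513R peaks of at most 2000 bases, and 665 of these were tested. Their first base was A in 544 cases (54.9%), against 46.5% of the 12547 expressed genes with a RefSeq start. It was G in 37.5%, C in 6.96% and T in 0.605%. Among peaks that began with A, 95 of 361 were stronger than typical (26.3%) and 10 were weaker. Among peaks that began with another base, 48 of 304 were stronger (15.8%) and 12 were weaker. Regions that share reads at a start were counted separately. Stronger peaks beginning with A were so counted on RBM14 (1.74 and 1.74) and CKLF (1.86 and 1.87). The median for A exceeded that for the other bases by 0.21, 0.32 and 0.25 on the log2 scale in pairs 1, 2 and 3 (0.26 ± 0.06, mean ± SD, n = 3 pairs; exact sign-flip permutation test, two-sided, p = 0.25, the smallest that 3 pairs allow). With at least 20 input counts the difference was 0.20. Whether these peaks hold m6Am, m6A or both cannot be told apart with this antibody.

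The first 20 bases of RNAs with a strong start peak are printed here to show that first base, which is in capitals. They are those of strong start peaks with a mean input count of at least 20, chosen after their values were seen and not a complete set, and are read 5′ to 3′ from RefSeq, with their GRCh38 position.
CYCS (chr7:25125241-25125260, minus strand): Agagagtggggacgtccggc
EBP (chrX:48521808-48521827, plus strand): Actaggggatgagcccgaac
MT2A (chr16:56608584-56608603, plus strand): Accacgcctcctccaagtcc
SDHD (chr11:112086873-112086892, plus strand): Gggttggtggatgaccttga
TMSB4X (chrX:12975110-12975129, plus strand): Aactcggtggtggccactgc
CKLF (chr16:66552563-66552582, plus strand): Atgcgcgcaagagagcggga
HEXIM1 (chr17:45148475-45148494, plus strand): Agcagttggaagttggcagg
SDHD is the one of these that does not begin with A. Weak start peaks are shown beside them by RPS14 and PLTP; they do not stand for all, since 10 of the 22 weaker start peaks began with A.
RPS14 (chr5:150449720-150449739, minus strand): Ctctctttccggtgtggagt
PLTP (chr20:45912136-45912155, minus strand): Gccagaccccgtcgcccgga

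CYCS encodes cytochrome c, and its start peak held 1092, 806 and 904 CPM in the IP libraries against 244, 175 and 137 CPM in the inputs. All 3 IP libraries stood far above all inputs, and the log2 IP over input was 2.33 ± 0.21 (SE; adjusted p = 2.23e-06). The start peak of TMSB4X, the actin-binding thymosin beta 4, had 77.8, 113 and 120 CPM in IP and 27.5, 17.1 and 21.2 CPM in input (log2 2.23 ± 0.23). That of MT2A, a metal-binding metallothionein, had 23.9, 40.1 and 30.2 CPM in IP and 7.65, 5.47 and 6.05 CPM in input (log2 2.27 ± 0.28). In each of these the lowest IP library was above the highest input. RPS14, a ribosomal protein whose mRNA begins with a C followed by pyrimidines, showed the reverse: its start peak had 94.4, 58.1 and 73.8 CPM in IP and 512.6, 367 and 324 CPM in input, a log2 of -2.41 ± 0.22 (adjusted p = 2.23e-06). The PLTP start peak was at -1.61 ± 0.37 (adjusted p = 0.0038). Without pair 2 it was at -1.14 and was no longer called (adjusted p = 0.137). The authors' deposited fold enrichment ranked these start peaks otherwise. It was 8.69 in TMSB4X, 7.85 in PLTP, 7.14 in CYCS, 6.98 in MT2A and 4.29 in RPS14. Weak thus refers to the fit used here, and PLTP is not weak by the deposited value.

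The strongest peak with at least 20 input counts lay on GALNT5, an enzyme that starts O-linked glycosylation in the Golgi. It covered 541 bases near the start of the last exon (chr2:157311273-157311813, GRCh38), with its midpoint 336 bases into an exon of 7284. IP CPM were 40.6, 56.3 and 87.2 and input CPM 7.43, 7.18 and 6.43, so the inputs were alike and IP was lowest in library 1 and highest in library 3. The fitted log2 was 3.11 ± 0.29, 8.65 times the typical peak (adjusted p = 3.37e-06).

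Several of the other strongest peaks lay deep in long last exons. On MDM2, the ubiquitin ligase that restrains p53, a peak of 630 bases (chr12:68841805-68842434) had 82.9, 93.2 and 102 CPM in IP and 13.1, 13.7 and 17.8 CPM in input (log2 2.65 ± 0.21, adjusted p = 1.77e-06). It varied little, with pair values of 2.62, 2.72 and 2.49, and its midpoint was 2846 bases into the last exon; the region touches exons of 2 genes. ENTPD1, an ectonucleotidase of the cell surface, had a peak 8093 bases into its last exon (chr10:95873999-95874539) with 211, 341 and 437 CPM in IP and 51.1, 65.0 and 55.6 CPM in input (log2 2.53 ± 0.23). PGBD2, derived from a piggyBac transposase, and the zinc finger gene ZNF316 had last-exon peaks at 2.55 ± 0.29 and 2.52 ± 0.35. These sit far beyond the last splice junction, at 1370 and 1085 bases into the exon.

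Peaks of other positions were also among the strongest. EXOSC6, a subunit of the RNA exosome encoded by a single exon, had a peak of 599 bases (chr16:70250626-70251224) with 28.9, 40.8 and 65.2 CPM in IP and 5.85, 5.47 and 7.94 CPM in input (log2 2.81 ± 0.32, adjusted p = 1.27e-05). ERCC6L2, a DNA repair helicase, had a peak in an internal exon of 6223 bases (log2 2.52 ± 0.30). On GTF3C4 (3.04 ± 0.30), HOXA13 (2.65 ± 0.22), MDK (2.55 ± 0.25) and MAGEB17 (2.50 ± 0.34) the midpoint of the peak fell outside the exons, and each of these peaks was longer than the median, from 790 to 7412 bases. HOXA13, a posterior homeobox gene, had by far the most reads of them, 697, 1176 and 1241 CPM in IP and 156, 146 and 194 CPM in input (chr7:27197885-27199255). MAGEB17, a cancer-testis antigen gene, had a peak although its RNA-seq level was 0.458 CPM.

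Among the weakest peaks, MMS19, which hands iron-sulfur clusters to DNA-handling enzymes, had 1.37, 0.769 and 1.73 CPM in IP and 9.01, 8.21 and 4.91 CPM in input, at an internal exon of 148 bases (log2 -2.51 ± 0.44, adjusted p = 0.000554). The peak of HOXB6, another homeobox gene, spanned 5695 bases including introns and stood at -1.65 ± 0.24 (adjusted p = 0.000124). STRADA, a pseudokinase that activates LKB1, was at -2.04 ± 0.40 (adjusted p = 0.00126). Weaker peaks were longer than stronger ones, with medians of 754 and 422 bases, and 56.3% of them spanned an intron, against 23.6% of the stronger and 31.7% of all tested peaks.

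Peaks were then placed in the exon structure of their gene by their midpoint. Deep last-exon peaks, those more than 400 bases past the start of the last exon, were the most frequent class with 4110 peaks (26.7%), followed by internal exons of at least 400 bases (3808, 24.7%) and midpoints outside merged exons (3503, 22.7%). First exons held 1656 peaks, the first 400 bases of last exons 1451, internal exons under 400 bases 506 and single-exon genes 372. Since exon lengths set how much of the transcriptome each class covers, the counts do not show preference.

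The median enrichment of 6 of the 7 classes lay on the same side of the other peaks in every pair. Deep last-exon peaks had median log2 values of 0.44, 0.59 and 0.67 in pairs 1, 2 and 3, and all other K513R peaks had 0.17, 0.25 and 0.28. The difference was 0.33 ± 0.06 (mean ± SD over 3 pairs), and 30.1% of these peaks were stronger and 3.40% weaker than typical. Short internal exons were at the other end, with medians of -0.08, -0.03 and -0.09, a difference of -0.38 ± 0.08 from the rest, 9.88% stronger and 14.8% weaker. Peaks outside merged exons lay 0.38 ± 0.16 below the rest on the log2 scale (16.1% stronger, 13.6% weaker). Single-exon genes were above the rest by 0.20 ± 0.07, the start of last exons by 0.13 ± 0.07 and long internal exons by 0.08 ± 0.04. First exons differed by 0.10 ± 0.14, less than the spread between pairs, with 0.22 in both sets in pair 1. The exact sign-flip permutation test over 3 pairs cannot go below p = 0.25 (two-sided), which these 6 classes reached (adjusted p = 0.292 over 7 classes), while first exons had p = 0.50.

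Input depth moved with these classes: the median input count was 18 in deep last-exon peaks and 77.3 in peaks outside exons. Peaks were therefore also split into 3 classes of equal size by mean input count (up to 16, 16 to 70.3, and above). In the lowest class 0.0298% of peaks were weaker, since peaks got in mainly through high IP, and no direction is read from it: differences from the rest there were 0.09 ± 0.07 for deep last exons, 0.08 ± 0.07 for single-exon genes, -0.09 ± 0.08 for short internal exons and -0.05 ± 0.03 for peaks outside exons (mean ± SD over pairs). In the middle and the highest class, deep last exons exceeded the rest by 0.10 ± 0.02 and 0.15 ± 0.05, and single-exon genes by 0.30 ± 0.13 and 0.23 ± 0.16. Short internal exons were at -0.40 ± 0.11 and -0.22 ± 0.03. These 3 classes were on the same side in all pairs of both classes of input, deep last exons at a smaller size than in all peaks. Long internal exons exceeded the rest by 0.07 ± 0.04 and 0.10 ± 0.04. Peaks outside exons were at -0.08 ± 0.09, less than the spread between pairs, and at -0.16 ± 0.11. First exons, at -0.04 ± 0.12 and 0.15 ± 0.20, and last-exon starts, at -0.04 ± 0.02 and 0.01 ± 0.09, had no common direction. Peak length also differed between classes, with a median of 122 bases in short internal exons and 182 in deep last exons. It was 240 bases in single-exon genes and 3152 outside exons. The classes were not split by length.

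Within the last exon, median enrichment was higher away from the splice junction. Peaks whose midpoint was within 100 bases of the exon's start had a median of 0.15 (42 peaks tested), those at 100 to 200 bases 0.29, those at 200 to 400 bases 0.51 and those at 400 to 800 bases 0.69. Beyond that it was level: 0.64 at 800 to 1600 bases, 0.58 at 1600 to 3200 and 0.62 further in. The share of stronger peaks was 9.52% in the first 100 bases, 33.9% at 400 to 800 bases and 27.4% beyond 3200. Between the first 100 bases and 400 to 800 bases the median went from 0.09 to 0.40 in pair 1, from 0.16 to 0.65 in pair 2 and from 0.07 to 0.79 in pair 3. The distance is from the last splice junction, not from the stop codon, whose position was not used here. These distances were not split by input count, whose median was 22.7 at last-exon starts and 18 in deep last exons. Nor were they split by peak length, and a peak centred near the junction is short unless it crosses it. Over all tested K513R peaks the median was 0.30 up to 100 bases and 0.34 at 100 to 200. It was 0.51 at 200 to 400 bases, 0.68 at 400 to 1000 and 0.04 at 1000 to 5000. How much of the rise goes with depth or with peak length was not tested.

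Peaks of the same gene were then compared with each other. In 325 genes with tested peaks in the last exon and in a long internal exon, the last-exon peak was the stronger in 198 (60.9%), by a median of 0.25, 0.20 and 0.23 in pairs 1, 2 and 3. In 231 genes with peaks in the last and the first exon the last exon was the stronger in 103, a median difference of -0.18 ± 0.11 over pairs. Deep last-exon peaks exceeded peaks at the start of the same exon in 120 of 212 genes (0.13 ± 0.08), and long internal exons exceeded peaks outside exons in 291 of 488 genes (0.21 ± 0.07). Each of these 4 kept its sign in all pairs (exact sign-flip permutation test, two-sided, p = 0.25 each). Along the summed exon length of a gene, the first 10% held 19.8% of peaks and each further 10% held 7.91% to 10.2%.

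A single peak was found on 3815 of the 7788 genes (49.0%), 2 peaks on 2131, 3 or 4 on 1436, 5 to 9 on 377 and 10 or more on 29. The last group had long transcripts, with a median exon length of 16005 bases, against 5063 for genes with 1 peak. AHNAK, a giant scaffold protein, had the most, 17 peaks, all in its long internal exon and of modest strength (median -0.24, 1 stronger, 3 weaker). DST, a cytoskeletal linker, and KMT2A, a histone H3 lysine methyltransferase, had 16 each. CEP290, a ciliary protein, had 15, ALG11, a mannosyltransferase, 14, and MKI67, the proliferation antigen Ki-67, 13. The 12 tested peaks of KMT2A ranged from -0.15 to 1.40, and CEP290 had 4 stronger peaks among 13.

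How often a gene carried a peak followed its RNA level. Of 20707 genes with at least 1 CPM in K513R RNA-seq, 7639 (36.9%) had a K513R peak. The share was 7.96% at 1 to 3 CPM, 27.1% at 3 to 10, 51.4% at 10 to 30, 65.6% at 30 to 100 and 70.5% at 100 CPM or more. It also followed exon length, from 2.70% of genes of at most 1000 bases to 61.5% of genes over 8000 bases. Enrichment ran the other way: the median log2 was 0.77 at 1 to 3 CPM and 0.08 at 100 CPM or more, where 17.4% of peaks were stronger and 15.5% weaker. Because calling a peak needs reads and the filter keeps low-input peaks only when IP is high, depth and strength cannot be told apart across these levels.

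**Figure D1:**
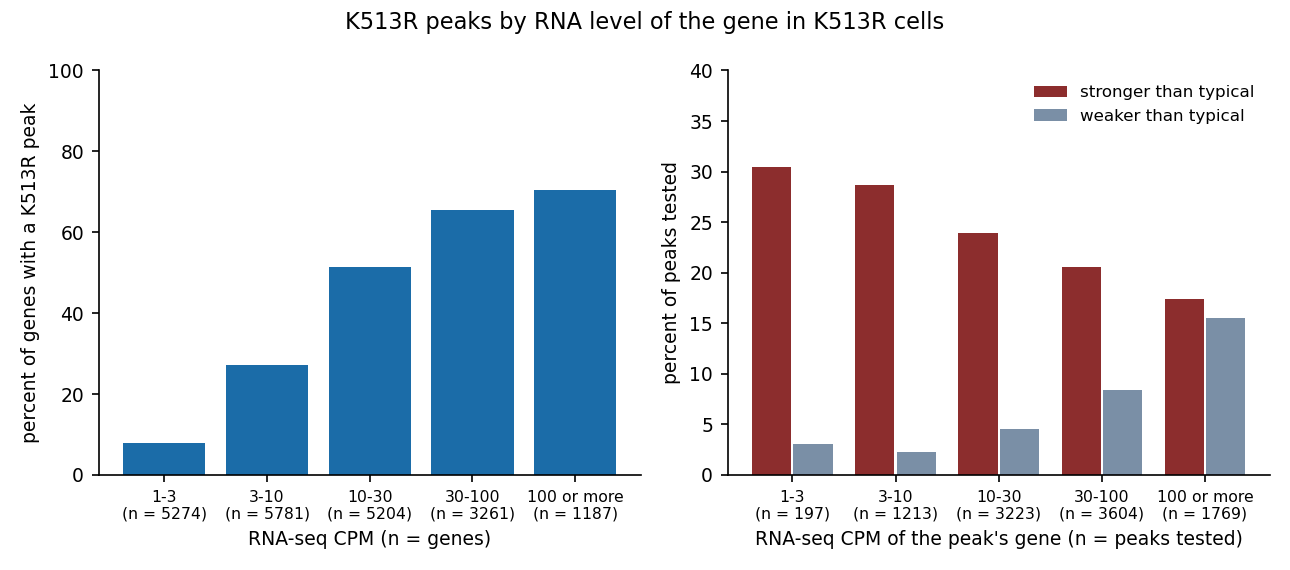
K513R peaks by mean RNA-seq level in K513R cells. Left, percent of genes with a K513R peak, 7.96% in the lowest and 70.5% in the highest class; right, percent of tested peaks stronger (red) and weaker (grey) than typical in each class, with stronger peaks at 30.5% in the lowest and 17.4% in the highest class.

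Counts of calls in this and the further gene lists are to be set against 22.3% stronger and 7.56% weaker in all tested peaks. Counts of genes with a peak are to be set against 36.9% of all expressed genes, or 51.9% of those at 5 CPM or more. Both RNA level and exon length go with that share, and the lists were not matched for them. The transcripts of the m6A pathway had peaks themselves. Of 13 writer genes, all expressed, 11 had a K513R peak. Of their 27 tested peaks 4 were stronger and 2 weaker, with a median of 0.19 against 0.35 for all tested peaks. METTL3 had 1 peak, in its first exon (chr14:21511132-21511312), with 45, 50 and 68 IP counts and 26, 28 and 23 input counts. This peak is among the start peaks that begin with A, where m6Am and m6A cannot be told apart. Its log2 was -0.02 ± 0.34 (adjusted p = 0.965), and METTL3 RNA was at 50.6 ± 5.86 CPM (SD, n = 3). METTL14, its partner, had 3 peaks in the last exon. One, 159 bases into that exon, was at -0.65 ± 0.23 (adjusted p = 0.0412), with 12.5, 12.8 and 12.7 CPM in IP and 20.3, 19.8 and 19.3 CPM in input. Another, 549 bases in, was at 0.39 ± 0.43, and the third had too few counts. WTAP, the adaptor of the complex, had 4 peaks, of which that in the first exon was stronger, with 21.0, 22.1 and 21.9 CPM in IP against 10.8, 14.4 and 10.6 CPM in input (log2 0.87 ± 0.24, adjusted p = 0.0118). ZC3H13 had both a stronger (0.80 ± 0.19) and a weaker (-0.62 ± 0.19) peak, and RBM15 (0.67 ± 0.23) and METTL16 (0.56 ± 0.19) a stronger one each. None of the 6 writer calls held in every alternative. Without pair 2, for example, WTAP was at 1.00 (adjusted p = 0.0844) and the METTL14 peak at -0.66 (adjusted p = 0.25).

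Of the 11 expressed readers 9 had a peak, with 5 stronger and 2 weaker among 16 tested (median 0.31), and none of these 7 calls held in every alternative either. YTHDF1, which binds m6A in the cytoplasm, was highest at 1.32 ± 0.32 (adjusted p = 0.00489; 1.11 without pair 2 and 1.08 without pair 3, neither called), followed by IGF2BP2 at 1.04 ± 0.24 (1.05 without pair 2, not called). Of the erasers, FTO had 2 peaks, both with too few counts to test, and ALKBH5 had none at 72.2 CPM.

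Transcripts often used as examples of m6A had peaks of high median enrichment. Of 11 expressed, 10 had a peak, and 11 of their 24 tested peaks (45.8%) were stronger and none weaker, with a median of 0.84. Of the 11 calls 5 held in every alternative. Against other peaks of like input, from the lowest to the highest class, the difference was -0.03 ± 0.33, -0.21 ± 0.17 and 0.83 ± 0.16, so the excess lay in the 10 peaks of highest input. MAT2A, the enzyme that makes S-adenosylmethionine, had 137, 205 and 265 CPM in IP and 37.6, 46.5 and 37.4 CPM in input in a peak 1104 bases into its last exon (log2 2.32 ± 0.23, adjusted p = 3.9e-06). All IP libraries were above all inputs by a wide margin, with pair 1 the lowest. ACTB, beta-actin, had 2 stronger peaks, at 1.69 ± 0.25 and 1.56 ± 0.25. The nuclear lncRNA MALAT1 had 1 peak of 96 bases, at 0.64 ± 0.18 (adjusted p = 0.0115; 1.07, 0.57 and 0.23 in the pairs), and its call was lost in 6 alternatives. It kept its size without pair 2 (0.68) and without an input library (0.55 to 0.67), and was smaller when only K513R-named regions were fitted (0.37) and among peaks of high deposited score (0.29). OIP5-AS1, another lncRNA, was at 1.64 ± 0.24, with a region that touches exons of 2 genes. This region is also a start peak that begins with A, so it may hold m6Am, m6A or both. NEAT1 and NORAD, at 362 and 634 CPM, had no region named for K513R, which does not show that they lack m6A.

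SETD1A and E2F4, named in the study's title, had no peak called stronger or weaker. SETD1A, a histone H3 lysine 4 methyltransferase, had 3 peaks of few counts, and the one tested was at 0.60 ± 0.52 (adjusted p = 0.394). E2F4, a repressive E2F transcription factor, had none at 36.0 CPM. Of all genes at 30 to 100 CPM, 65.6% had a peak, so a gene of that level without a peak is not rare. Over the SETD1 and KMT2 complexes, 14 of 18 genes had a peak, with 7 stronger and 5 weaker of 53 tested (13.2% and 9.43%, median 0.34), of which 4 stronger and 0 weaker calls held in every alternative. KMT2C, a large methyltransferase of enhancers, had 19.2, 25.4 and 31.8 CPM in IP and 4.73, 9.23 and 3.40 CPM in input in an exon of 4533 bases (log2 2.14 ± 0.33, adjusted p = 0.000172). Of its other peaks 3 were weaker than typical, between -0.94 and -0.63, none of them in every alternative. Of 19 genes of the E2F, pocket protein and MuvB list 9 had a peak, with 4 stronger and 1 weaker of 10 tested (median 0.61). Of these calls 1 stronger and 0 weaker held in every alternative. E2F5 was the highest at 2.09 ± 0.30 (adjusted p = 0.000101). The 23 of 25 expressed genes of retroelement silencing with a peak had 10 stronger and 5 weaker peaks among 43 tested (23.3% and 11.6%, median 0.30), against 22.3% and 7.56% of all peaks. Of these calls 3 stronger and 0 weaker held in every alternative. CBX3, a heterochromatin protein, had 147, 78.0 and 76.8 CPM in IP and 50.4, 31.1 and 27.6 CPM in input (log2 1.45 ± 0.27), with pair 1 the highest in both.

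Immune genes were read from 3 lists. Of 18 expressed antigen presentation genes 5 had a peak (27.8%, exact 95% interval 9.69% to 53.5%). That interval holds the 36.9% of all expressed genes, but these are mostly of lower level. The list had a median of 56.4 CPM, and 65.6% of genes at 30 to 100 CPM had a peak. Among genes of at least 5 CPM the shares were 31.25% in the list and 51.9% in all. Exon length, with which the share ran from 2.70% to 61.5% over all expressed genes, was not matched. The difference was not tested. HLA-B (503 CPM), HLA-E (367 CPM), TAP2 (180 CPM) and B2M (21.9 CPM), the presenting molecules and a peptide transporter subunit, had none. Of 8 tested antigen presentation peaks 0 were stronger by edgeR, also at an unadjusted p under 0.05, and 0 by DESeq2 and limma-voom, while 3 were weaker, 2 on the chaperone CANX and 1 on the disulfide isomerase PDIA3 (-0.69 ± 0.20). The PDIA3 peak and the CANX peak at -0.59 ± 0.15 were not called without pair 2 or without pair 3. The CANX peak called in every alternative had 232, 210 and 173 CPM in IP and 437, 507 and 423 CPM in input (log2 -1.15 ± 0.17, adjusted p = 0.000124). Ligands of natural killer cell and checkpoint receptors had a peak in 10 of 16 expressed genes, with 3 stronger and 0 weaker of 7 tested (median 0.85). Lists of 7 or 8 peaks are too short to set against the 22.3% and 7.56% of all tested peaks, and the difference between them was not tested. NECTIN3, an adhesion ligand, had 22.4, 23.8 and 24.9 CPM in IP and 5.40, 5.81 and 7.56 CPM in input (log2 1.94 ± 0.26, adjusted p = 6.31e-05). ULBP3, a ligand of the activating receptor NKG2D, was at 1.55 ± 0.24 with IP of 26.6 to 30.4 CPM and input of 9.01 to 10.3 CPM. In double-stranded RNA sensing and interferon signalling 23 of 31 genes had a peak, with 6 stronger and 4 weaker of 36 tested (16.7% and 11.1%, median 0.37), near the shares of all peaks. IFNAR2, an interferon receptor chain, carried stronger peaks that overlap and share reads (1.52 ± 0.36 and 1.51 ± 0.36, the latter not called without pair 3).

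Signalling genes were read from several lists, whose counts are to be set against 22.3% stronger and 7.56% weaker in all tested peaks. Of all expressed genes, 36.9% had a peak. In the Wnt pathway 28 of 36 expressed genes had a peak, with 8 stronger and 4 weaker of 39 tested (20.5% and 10.3%, median 0.45), near the shares of all peaks. Of these calls 2 stronger and 1 weaker held in every alternative. APC, the scaffold of beta-catenin destruction, had 19.6, 29.4 and 24.4 CPM in IP and 5.85, 5.47 and 7.18 CPM in input, 6068 bases into its last exon of 8687 (log2 1.99 ± 0.28, adjusted p = 7.16e-05), and the Wnt receptor FZD7 was at 1.85 ± 0.27. Immediate early transcription factors had 6 stronger and 0 weaker of 17 tested (35.3% stronger, median 0.82; 3 calls held in every alternative), led by IER2 at 1.56 ± 0.28. Receptor tyrosine kinases had 5 stronger and 0 weaker of 16 (31.3% stronger, median 0.28), of which 1 call held in every alternative. NF-kB and TNF signalling had 2 stronger and 0 weaker of 14 (14.3% stronger, median 0.60), and the p53 pathway 4 stronger and 0 weaker of 11 (36.4% stronger, median 0.34), of which 3 held. REL, an NF-kB subunit, had 4.91, 8.46 and 10.2 CPM in IP and 0.450, 0 and 1.13 CPM in input, so its value of 3.90 ± 0.62 rests on few input counts and on a filter passed through IP. In the YAP and TEAD list 5 of 18 tested peaks were stronger and 0 weaker (median 0.22). They lay on 2 genes, AMOTL2 (up to 2.41 ± 0.45) and the kinase LATS1 (2.28 ± 0.56 and 1.89 ± 0.36), and 3 of the 5 calls held in every alternative. The highest peaks of both rest on few input counts, 13, 1 and 9 in AMOTL2 and 3, 3 and 1 in LATS1, and passed the filter through IP.

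Among developmental transcription factors, SOX genes had 5 stronger and 0 weaker of 9 tested peaks (median 0.88). Too few peaks were tested to set these counts against the 22.3% and 7.56% of all tested peaks. In the lists given here with 0 weaker peaks by edgeR, DESeq2 also called 0 and limma-voom 0 except 1 mitochondrial peak, and an unadjusted p under 0.05 was reached by 0 peaks except 1 of the p53 pathway and 1 mitochondrial peak. SOX4 had 51.1, 63.1 and 66.1 CPM in IP and 16.4, 17.1 and 21.9 CPM in input, 3002 bases into its single exon (log2 1.71 ± 0.22, adjusted p = 3.38e-05). SOX9 (1.71 ± 0.45) and SOX2 (1.24 ± 0.32) were called with all libraries but not without pair 2, where they were at 1.60 and 1.05. The SOX9 value rests on 9, 4 and 3 input counts and on a filter passed through IP. HOX genes had 8 stronger and 1 weaker of 27 (29.6% and 3.70%, median 0.65), from HOXA13 to HOXB6 above. Only those 2 calls held in every alternative. Against other peaks of like input, from the lowest to the highest class, the HOX difference was -0.0012 ± 0.22, 0.33 ± 0.23 and 0.0070 ± 0.32. It exceeded the spread between pairs only in the middle class, which held 5 HOX peaks. Of 37 expressed clustered protocadherin genes 0 had a peak, which allows a share of up to 8.11%. The median level over all 54 genes of that list was 1.18 CPM, and 0 of them reached 5 CPM.

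The ZNF zinc finger genes, most of which encode DNA-binding repressors, were the largest family examined. Of 386 expressed, 274 (71.0%) had a K513R peak, against 36.9% of all expressed genes. The median level was 5.40 CPM over all 557 genes of the list, those not expressed included. Among 367 tested peaks 121 (33.0%) were stronger and 6 (1.63%) weaker, with a median of 0.75 (0.51, 0.70 and 0.76 in the pairs), and 37 of the 121 were called in every alternative. ZNF827 had 8.34, 13.7 and 16.7 CPM in IP and 0.450, 0.342 and 0.756 CPM in input (log2 4.61 ± 0.51), and ZNF618 was at 3.32 ± 0.47. With 2, 1 and 2 input counts in ZNF827 and 5, 1 and 4 in ZNF618, both passed the low-count filter through IP, so their size is uncertain. ZNF peaks had low input counts: 195 of the 367 were in the lowest class of input. Against other K513R peaks of the same class the difference was 0.05 ± 0.08, 0.21 ± 0.11 and 0.16 ± 0.06 from lowest to highest, with 32.8%, 36.1% and 23.1% stronger against 28.9%, 23.3% and 13.6% of the others. It exceeded the spread between pairs in the middle and highest class and not in the lowest.

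Cytosolic ribosomal protein genes were at the other end. Of 82 expressed, 44 had a K513R peak (53.7%), and the median level over all 84 genes of the list was 169 CPM. Of 55 tested peaks 6 were stronger and 14 (25.5%) weaker. The median was -0.23, with -0.09, -0.28 and -0.37 in the pairs. Against other peaks of the same class of input counts the difference was -0.26 ± 0.18, -0.48 ± 0.12 and -0.28 ± 0.13, from lowest to highest. RPL24 was an exception, with 2 peaks, 1 of which had 83.5, 105 and 106 CPM in IP and 23.9, 27.0 and 23.8 CPM in input (log2 1.98 ± 0.20, adjusted p = 4.44e-06). The other had near-equal values of 82.7, 107 and 109 CPM in IP and 24.3, 27.4 and 25.7 CPM in input, and it is not read as a separate result. Of the 14 weaker calls 4 held in every alternative, and RPS14 described above was the weakest. Glycolytic enzymes, also highly expressed (median 125 CPM), had 2 stronger and 3 weaker of 11 tested (median 0.25). ENO1, an enolase, had 25.6, 30.1 and 34.0 CPM in IP and 79.0, 59.8 and 55.2 CPM in input (log2 -1.12 ± 0.21).

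The table also holds regions on mitochondrial RNA, which is made outside the nucleus. Mitochondrially encoded genes had a K513R peak in 15 of 31 expressed (48.4%, against 36.9% of all expressed genes), with 6 stronger and 0 weaker of 18 tested (median 0.18). Regions on MT-ATP8, MT-ND1 and MT-ND2 were the strongest. MT-ND1, a subunit of complex I, had 7893, 5091 and 4522 CPM in IP and 3526, 2142 and 1801 CPM in input (log2 1.23 ± 0.24, adjusted p = 0.00114), with both fractions highest in pair 1. The MT-ATP8 region, which touches 2 genes, was at 2.49 ± 0.31 (adjusted p = 8.44e-05). Replication-dependent histone genes, whose mRNAs end without a poly(A) tail, had a peak in 13 of 61 expressed (21.3%, against 36.9% of all). Of 10 tested histone peaks 2 were stronger and 2 weaker. H4C3 was at 1.64 ± 0.24, and H1-5 had 818, 691 and 603 CPM in IP against 1422, 1556 and 1619 CPM in input (log2 -1.12 ± 0.17).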

How the data were processed

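MeRIP-seq and RNA-seq libraries of LoVo cells with METTL3 K513R were analysed; the wild-type columns were not used. Per the submitters' processing notes, reads were trimmed with Trimmomatic 0.36 and counted with featureCounts (Subread 1.5.1) on GRCh38, with bedtools, deepTools and edgeR 3.12.1 also named. Which aligner and which peak caller were used is not given in the sources used here. Deposited values are counts per peak and per gene, as made by the authors. The authors' table also holds a fold enrichment per peak (the deposited score equals it in 100% of peaks), used only to describe and filter peaks. The authors' deposited p-values and log2 differences between genotypes were not used.

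Log2 IP over input was fitted over all peaks of the table that passed edgeR's low-count filter (TMM scaling, quasi-likelihood test, Benjamini-Hochberg adjustment over all peaks tested; edgeR 4.0.16, limma 3.58.1, DESeq2 1.42.0, R 4.3.3; summaries in Python 3.11.15). An adjusted p under 0.05 was called. Pair values add 0.5 CPM to IP and input and so lie nearer 0 than fitted values for low-count peaks; classes were compared over the 3 pairs with exact sign-flip permutation tests. A gene counted as expressed at 1 CPM, and reads over overlapping genes cannot be told apart without strand. Peaks were placed by their midpoint on exons from the deposited gene table. Deviations of same-numbered IP and input libraries from their group means correlated at 0.179, 0.0398 and 0.0481, so the numbers were not used as a pairing in the peak test. Comparisons of position classes, first bases and peaks within genes do set same-numbered IP and input libraries against each other. The script was tested on simulated data. Peaks were named by rule: the 12 strongest and 6 weakest with at least 20 input counts, 1 per gene, the 6 genes with most peaks, the strongest of each position class, the genes of the study, and the strongest and weakest of each gene list. Members and lists were chosen with earlier results of these data known. Alternatives changed the scaling, filter, tool, class boundary and libraries. Some items are not reported here.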

Additional observations from a re-analysis of the deposited data

How the results depend on the processing

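Counts of stronger and weaker peaks moved most with the choice of peaks and libraries. Against 2237 stronger and 760 weaker peaks, there were 1473 and 487 with a mean input count of at least 20, 1387 and 1533 when only the K513R-named regions were fitted, 1123 and 166 with a deposited score above the K513R median, and 1242 and 341 at an adjusted p under 0.01. Leaving out a library or a pair gave 939 to 2714 stronger and 80 to 1144 weaker peaks. With the replicate number as a block there were 2654 stronger and 1112 weaker peaks, and 3 of 6 libraries correlated best with their own number.

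Position differences changed sign for the start of the last exon with a boundary of 200 bases (-0.082) and in the middle class of input (-0.043), for first exons with the strongest peak of each gene (-0.024) and in the lowest (-0.048) and middle (-0.039) class of input, and for long internal exons by the middle exonic base (-0.0071) and in the lowest class (-0.040). With the strongest peak of each gene, list medians relative to all peaks changed sign for m6A writers (0.040), SETD1 and KMT2 complexes (0.29), retroelement silencing (0.26), receptor tyrosine kinases (0.39) and the p53 pathway (0.17). They moved to 0.35 for interferon signalling, 0.36 for checkpoint ligands, -0.42 for YAP and TEAD, 1.00 for lncRNAs, -0.84 for ribosomal proteins, -0.56 for histones and 0.19 for HOX genes. At 5 CPM the share of genes with a peak was 100% for textbook m6A transcripts, writers and the YAP list, 77.8% for mitochondrial, 82.4% for ZNF and 87.5% for HOX genes. The cause was not tested. Of the 2369 values of single peaks, 151 lost the call and 35 gained one. In 38 values of 11 peaks the sign changed; 0 of these peaks were called by edgeR, and 0 of these values passed the threshold under the alternative. The middle exonic base, the classes of input and the RNA starts were chosen after seeing the data. The planned motif description was not run. Depth limits the 5353 untested peaks.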
